A study of Mus musculus with 24 samples.

Results

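The NFAT transcription factors and the kinases that send them back out of the nucleus were followed at the RNA level in 24 mouse aortas. The members were the rows of the deposited gene count table with the symbols Nfatc1, Nfatc2, Nfatc4, Dyrk1a, Gsk3b and Csnk1a1, 6 genes of the 41128 listed. Nfatc3 and Nfat5, the other family members listed, lie in a stretch of chromosome 8 where every gene has 0 counts, so they were not measured. Mice lacking Ppp3cb, which encodes the beta catalytic subunit of the phosphatase calcineurin, carried the targeted allele of the strain B6,129S6-Ppp3cbtm1Jmk/J (KO) and were set against wildtype mice (WT). All were 5 months old. Treated mice received angiotensin II (AngII) from implanted osmotic minipumps at 500 ng per kg of body weight per min over 4 weeks. Whether a pump was also implanted in control mice is not stated. With both sexes this gives 8 groups of 3 libraries: KO AngII, KO control, WT AngII and WT control, each in males and females. The allele is not described as limited to a cell type, and the labels do not state that each replicate was a separate animal, so errors and p-values measure the spread between these libraries.

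NFAT proteins rest in the cytoplasm in a heavily phosphorylated form. When calcium rises, calcineurin removes these phosphates, NFAT enters the nucleus and, together with partners such as AP-1, MEF2 and GATA factors, switches on target genes. Export kinases put the phosphates back: DYRK1A primes NFAT, GSK3-beta phosphorylates the primed protein, and casein kinase 1-alpha, the product of Csnk1a1, docks to NFAT and keeps it out of the nucleus. In arteries AngII raises calcium in smooth muscle, and NFAT has been studied there in growth, contraction and inflammation. RNA counts give the amount of transcript only, not where the protein lies or how it is phosphorylated.

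The DNA around 1 RefSeq start site each of 3 genes of this pathway is shown (build GRCm38.p6, the assembly of mm10; 250 bases before the start and 50 after it), because NFAT binds the core GGAAA. Capitals mark GGAAA and its reverse complement TTTCC. Nfatc2 and Nfatc4 are shown as measured NFAT genes, and Rcan1 as a classical NFAT target, at the start inside the gene that serves its calcineurin-responsive form. The windows are chr2:168601608-168601907 on the minus strand for Nfatc2, chr14:55824545-55824844 on the plus strand for Nfatc4 and chr16:92400029-92400328 on the minus strand for Rcan1.
Nfatc2: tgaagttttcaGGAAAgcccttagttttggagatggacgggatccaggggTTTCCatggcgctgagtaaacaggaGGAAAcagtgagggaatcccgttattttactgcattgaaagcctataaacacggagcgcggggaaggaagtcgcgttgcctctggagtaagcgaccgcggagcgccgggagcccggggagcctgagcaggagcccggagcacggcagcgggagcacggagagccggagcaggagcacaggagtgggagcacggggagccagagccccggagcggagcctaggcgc
Nfatc4: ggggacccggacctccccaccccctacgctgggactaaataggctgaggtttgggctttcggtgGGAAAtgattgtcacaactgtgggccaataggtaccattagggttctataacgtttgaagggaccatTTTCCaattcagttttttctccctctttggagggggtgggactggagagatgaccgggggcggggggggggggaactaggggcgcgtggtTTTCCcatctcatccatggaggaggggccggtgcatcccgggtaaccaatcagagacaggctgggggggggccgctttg
Rcan1: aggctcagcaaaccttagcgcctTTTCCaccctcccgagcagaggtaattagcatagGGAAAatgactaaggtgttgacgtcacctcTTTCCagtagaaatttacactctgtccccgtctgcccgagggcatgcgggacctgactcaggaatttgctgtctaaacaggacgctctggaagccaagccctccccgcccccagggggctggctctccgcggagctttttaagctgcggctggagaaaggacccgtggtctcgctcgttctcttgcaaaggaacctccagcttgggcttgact
Each of these windows holds the 5 letters 3 times, counting both strands, which is more than any other window counted here. Of 32851 mouse promoters of the same length, 61.3% hold them at least once and 9.42% at least 3 times. The single Gsk3b window holds them 1 time, the other Nfatc2 window 1 time, the upstream Rcan1 window 0 times, and the 3 Dyrk1a windows 0, 1 and 2 times. Matches to so short a motif describe the letters and do not show binding.

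Library totals ran from 1523328 to 6352365 counts (median 3835993), and 36.3% to 74.6% of them fell on protein-coding genes. One group differed from the rest on average, the KO control females. Genes of smell and pheromone receptors (Olfr and Vmn), as a class, are not expected to be high in an aorta. They averaged 1629 ± 545 CPM among protein-coding counts in the KO control females (SD, n = 3), where CPM is the count scaled to a common library size. Group means lay between 146 and 717 in the other 7 groups. The members' values that rest on the KO control females are also given without replicates 1 and 3 of that group, where the receptor values were highest. Single libraries overlapped in these receptor values: KO AngII female replicate 1 stood at 1073 CPM, above KO control female replicate 2 at 1002 CPM. The knocked-out gene was checked first: Ppp3cb stood at 21.3 ± 6.11 CPM, scaled by TMM, in KO and 41.9 ± 10.8 CPM in WT (SD, n = 12 each). The labels do not state which part of Ppp3cb is removed, and counts of the whole gene cannot separate that part. Of 9 smooth muscle markers 7 were measured, and they summed to 7136 to 21922 CPM over all libraries, so smooth muscle RNA was present in each.

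All 6 members were detected, at very different depths, and all 6 passed the count filter. Nfatc1 (ENSMUSG00000033016, chromosome 18, 80606205 to 80713071, minus strand, mm10) had 33 to 321 counts a library (median 146.5). Nfatc2 (ENSMUSG00000027544, chromosome 2, 168476410 to 168601657, minus strand) had 8 to 72 counts (median 27), the fewest of the 6 and the least precise. Nfatc4 (ENSMUSG00000023411, chromosome 14, 55823144 to 55833943, plus strand) had 0 to 156 counts (median 64) and lies 35.3 Mb from Ppp3cb on the same chromosome. Among the kinases, Dyrk1a (ENSMUSG00000022897, chromosome 16, 94570010 to 94695517, plus strand) had 71 to 469 counts (median 350). Gsk3b (ENSMUSG00000022812, chromosome 16, 38089001 to 38246084, plus strand) had 112 to 679 counts (median 473), and Csnk1a1 (ENSMUSG00000024576, chromosome 18, 61555274 to 61590061, plus strand) had 162 to 1119 (median 633.5). No exon of a member overlaps an exon of another annotated gene.

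Scaled to merged exon length, the 3 kinases stood above the 3 NFAT factors. Csnk1a1 averaged 16.3 ± 3.07 CPM per kb, Gsk3b 13.1 ± 2.62 and Dyrk1a 10.7 ± 2.49 (SD, n = 24). Nfatc1, the factor best known from heart valve formation and osteoclasts, averaged 5.24 ± 1.14 CPM per kb. Nfatc4, which acts with Nfatc3 in vessel development, averaged 3.10 ± 1.43, and Nfatc2, the main family member of T cells, 0.783 ± 0.381. The order held library by library with few exceptions: Csnk1a1 exceeded Gsk3b in 23 of 24 libraries, Gsk3b exceeded Dyrk1a in 20, Dyrk1a exceeded Nfatc1 in 23, Nfatc1 exceeded Nfatc4 in 23 and Nfatc4 exceeded Nfatc2 in 23. The ranges of neighbours in this order overlapped. Of the RNA of the 3 measured NFAT genes per length, Nfatc1 made up 58.8%, Nfatc4 32.3% and Nfatc2 8.82% on average over all libraries. These shares leave out Nfatc3, which has been studied most in arterial smooth muscle.

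**Figure D1:**
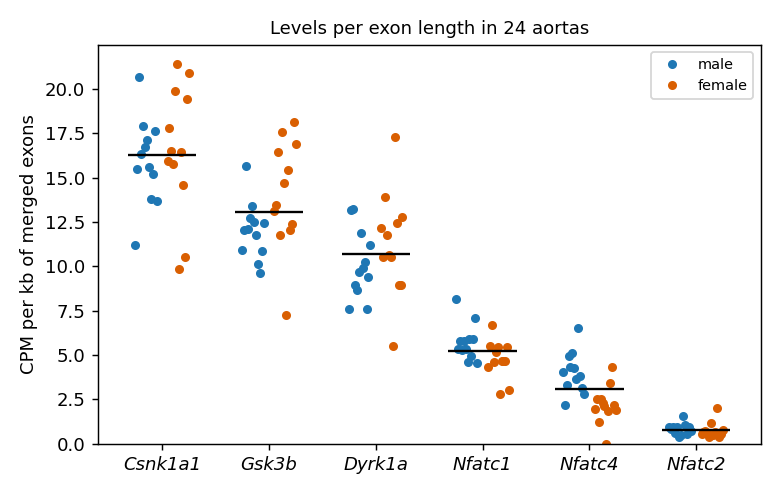
Level of each member in CPM per kb of merged exons (vertical axis) in 24 aortas, males left of females, with the mean over all libraries as a line. The kinases Csnk1a1, Gsk3b and Dyrk1a average 16.3, 13.1 and 10.7 CPM per kb and lie above Nfatc1, Nfatc4 and Nfatc2 at 5.24, 3.10 and 0.783.

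The first question was whether the NFAT factors themselves differ in amount after 4 weeks of AngII or with loss of Ppp3cb. Nfatc1 lay between 22.4 and 53.1 CPM in KO AngII aortas (median 37.7) and between 21.02 and 44.0 CPM in KO control aortas (median 34.9). It lay between 34.5 and 43.0 CPM in WT AngII aortas (median 39.6) and between 32.2 and 60.9 CPM in WT control aortas (median 42.2). The 4 groups of 6 overlapped, and the WT AngII group was the tightest, with an SD of 2.80 CPM against 7.47 to 10.4 CPM in the others. In edgeR's quasi-likelihood test over 16316 genes, with p-values adjusted by Benjamini and Hochberg and a gene called at an adjusted p under 0.05, AngII minus control was 0.14 ± 0.20 in KO and -0.18 ± 0.20 in WT for Nfatc1 (log2, SE). KO minus WT was -0.059 ± 0.20 in AngII mice and -0.37 ± 0.20 in control mice, where the interval ran from -0.79 to 0.039 (95%; edgeR, adjusted p = 0.559). Without KO control female replicates 1 and 3 that value was -0.32 ± 0.24, and AngII minus control in KO was 0.053 ± 0.24.

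Nfatc2 was the scarcest and the most variable factor. It lay between 4.22 and 10.1 CPM in KO AngII aortas (median 6.67) and between 4.88 and 21.1 CPM in KO control aortas (median 8.89). It lay between 4.03 and 12.6 CPM in WT AngII aortas (median 6.32) and between 5.50 and 10.0 CPM in WT control aortas (median 8.01). The highest level of all 24 was in KO control female replicate 3 (38 counts), followed by KO control male replicate 2 at 16.4 CPM (72 counts). AngII minus control was -0.65 ± 0.42 in KO, with an interval from -1.5 to 0.21 (edgeR, adjusted p = 0.75), and -0.14 ± 0.42 in WT (log2, SE). With KO control female replicates 1 and 3 left out the KO value was -0.30 ± 0.47. KO minus WT in control mice was 0.45 ± 0.42, and 0.069 ± 0.47 without those 2 libraries. T cell markers were also higher in this contrast over all libraries, in 3 of 3 tested and 0 called. Of the 8 listed 5 were measured, and none was at 0 over a whole group. They summed to 3.91 to 45.2 CPM in KO control aortas and 1.16 to 8.21 CPM in WT control aortas. Macrophage markers were higher too, in 8 of 8 tested, and neural and Schwann markers in 6 of 6. Smooth muscle markers were higher in 0 of 7, adipocyte in 0 of 5, mast cell in 0 of 4 and brown adipocyte in 0 of 3. Each of these lists had 0 called, and the marker values are not given without those 2 libraries. The part of any of these cell types in the Nfatc2 values was not tested. In whole aorta fewer cells of a type and less RNA per cell cannot be told apart.

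Nfatc4 lay between 11.1 and 25.1 CPM in KO AngII aortas (median 17.2) and between 0 and 37.9 CPM in KO control aortas (median 20.6). It lay between 12.3 and 29.6 CPM in WT AngII aortas (median 19.9) and between 6.99 and 23.4 CPM in WT control aortas (median 13.8). KO control aortas held both the lowest and the highest level. The library with 0 counts, KO control female replicate 1, was the shallowest of all, and 0 counts there allow a level of up to 1.91 CPM (3 counts; counting error only). AngII minus control was 0.033 ± 0.37 in KO and 0.44 ± 0.37 in WT (log2, SE), and the WT interval ran from -0.33 to 1.20. KO minus WT was -0.14 ± 0.37 in AngII mice and 0.26 ± 0.38 in control mice. Once KO control female replicates 1 and 3 were left out, AngII minus control in KO was 0.016 ± 0.32 and KO minus WT in control mice 0.24 ± 0.32.

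**Figure D2:**
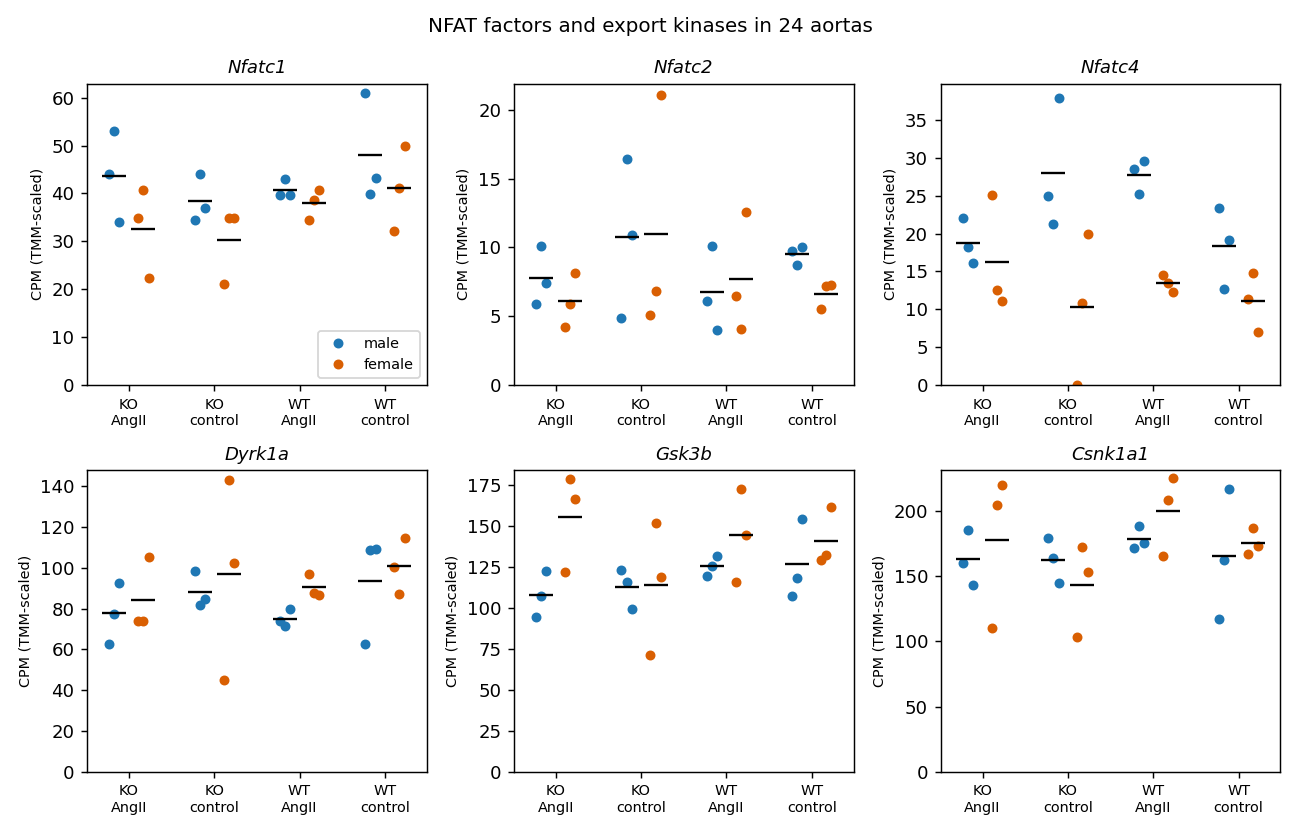
Level of each member in CPM after TMM scaling (vertical axis) in the KO AngII, KO control, WT AngII and WT control groups, with a point for each library, males left of females and the mean of each group of 3 as a line. The 4 groups overlap for every member, while Nfatc4 is higher in males (23.2 CPM on average) than in females (12.7 CPM).

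The coefficient of variation over all libraries was 18.9% for Csnk1a1, 20.1% for Gsk3b and 23.2% for Dyrk1a, against 21.7% for Nfatc1, 46.0% for Nfatc4 and 48.6% for Nfatc2. Dyrk1a, which primes NFAT for export, lay between 62.7 and 105 CPM in KO AngII aortas (median 75.7) and between 45.2 and 143 CPM in KO control aortas (median 91.4). It lay between 71.5 and 96.8 CPM in WT AngII aortas (median 83.1) and between 62.4 and 115 CPM in WT control aortas (median 105). AngII minus control was -0.19 ± 0.21 in KO and -0.24 ± 0.21 in WT (log2, SE), and neither was called. KO minus WT was -0.024 ± 0.21 in AngII mice and -0.065 ± 0.21 in control mice. Without KO control female replicates 1 and 3 the value in control mice was 0.17 ± 0.20, and AngII minus control in KO was -0.45 ± 0.20 (edgeR, adjusted p = 0.728).

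Gsk3b, which acts on primed NFAT and on many other proteins, lay between 94.6 and 178 CPM in KO AngII aortas (median 122) and between 71.3 and 152 CPM in KO control aortas (median 117). It lay between 116 and 173 CPM in WT AngII aortas (median 128) and between 107 and 161 CPM in WT control aortas (median 131). AngII minus control was 0.19 ± 0.18 in KO and 0.0099 ± 0.18 in WT (log2, SE), with an interval from -0.35 to 0.37 in WT. KO minus WT was -0.054 ± 0.18 in AngII mice and -0.24 ± 0.18 in control mice. Both values that rest on KO control mice were nearer 0 without KO control female replicates 1 and 3, at 0.0032 ± 0.20 for AngII minus control in KO and -0.070 ± 0.20 for KO minus WT in control mice.

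Csnk1a1 lay between 110 and 219 CPM in KO AngII aortas (median 172) and between 103 and 179 CPM in KO control aortas (median 158). It lay between 165 and 225 CPM in WT AngII aortas (median 182) and between 117 and 217 CPM in WT control aortas (median 170). AngII minus control was 0.16 ± 0.18 in KO and 0.15 ± 0.18 in WT (log2, SE). KO minus WT was -0.15 ± 0.18 in AngII mice and -0.16 ± 0.18 in control mice. All 4 of these values were smaller than their standard errors. With KO control female replicates 1 and 3 left out, AngII minus control in KO was 0.040 ± 0.22 and KO minus WT in control mice -0.067 ± 0.22.

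No member was called for AngII or for the knockout. Under AngII in KO, 0 of 6 members were called by edgeR, by DESeq2 and by limma-voom. In the edgeR fit of all 24 libraries 0 had an unadjusted p under 0.05, and the unadjusted p-values that follow are from that fit. Over all genes there, edgeR called 0 of 16316 (0%), while 1258 genes had an unadjusted p under 0.05. The count there was 17 by DESeq2 and 0 by limma-voom. Under AngII in WT, 0 of 6 members were called by any of these tools or had an unadjusted p under 0.05, beside 34 of 16316 genes called by edgeR (0.208%). For KO against WT the count was again 0 of 6 by every tool and at an unadjusted p under 0.05, beside 58 genes (0.355%) in AngII mice and 36 genes (0.221%) in control mice. So few genes were called in these contrasts that 0 of 6 is near the background share. The intervals are the more informative part: those of Nfatc1, Dyrk1a, Gsk3b and Csnk1a1 stayed within 0.79 of 0 on the log2 scale in all 4 contrasts, while those of Nfatc2 ran as far as -1.5 and 1.298 and those of Nfatc4 as far as 1.20.

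The difference between the AngII response of KO and that of WT was tested directly. It was 0.32 ± 0.29 for Nfatc1, -0.51 ± 0.59 for Nfatc2 and -0.40 ± 0.53 for Nfatc4 (log2, SE). The kinases gave 0.041 ± 0.29 for Dyrk1a, 0.18 ± 0.25 for Gsk3b and 0.012 ± 0.26 for Csnk1a1. Once KO control female replicates 1 and 3 were left out the factors gave 0.23 ± 0.30 (Nfatc1), -0.16 ± 0.61 (Nfatc2) and -0.41 ± 0.41 (Nfatc4), and the kinases -0.22 ± 0.27 (Dyrk1a), -0.0057 ± 0.26 (Gsk3b) and -0.10 ± 0.28 (Csnk1a1). No member was called, 0 of 6 had an unadjusted p under 0.05, and edgeR called 0 of 16316 genes (0%), with 657 at an unadjusted p under 0.05. DESeq2 and limma-voom called 0 genes as well. These values rest on the same control libraries as the 2 responses they are made from.

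**Figure D3:**
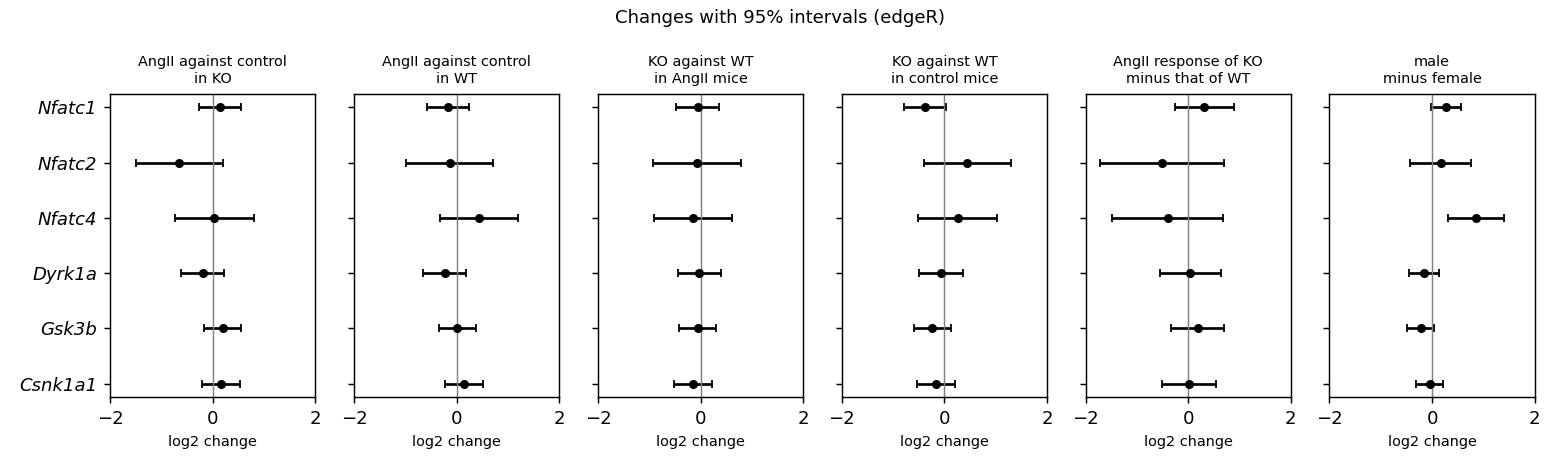
Change of each member on the log2 scale (horizontal axis) with its 95% interval in 6 comparisons, from edgeR. Every interval crosses 0 except that of Nfatc4 in male minus female, which runs from 0.31 to 1.39.

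Sex was in the titles, and it was the comparison in which 1 member's interval excluded 0. The X and Y chromosomes were not measured, so the sex labels were not checked against their genes. Nfatc4 lay between 12.7 and 37.9 CPM in males (median 22.7) and between 0 and 25.1 CPM in females (median 12.4), or 23.2 ± 6.74 and 12.7 ± 6.15 CPM (SD, n = 12 each). All 12 males lay above the female median. The ranges of the sexes did not overlap among KO control and among WT AngII aortas, and they overlapped among KO AngII and among WT control aortas. The share of all genes that separate in this way with 3 libraries a side was not counted, so these separations are a description only. For Nfatc4 male minus female was 0.85 ± 0.27 with an interval from 0.31 to 1.39 (log2, SE, 95%), just short of the threshold (edgeR, unadjusted p = 0.00329, adjusted p = 0.0564). By edgeR 0 of 6 members were called, beside 860 of 16316 genes (5.27%), 562 of them higher in males. RLE scaling gave 0.81 (edgeR, adjusted p = 0.0672) and the receptor share as a covariate 0.78 (edgeR, adjusted p = 0.576), and neither called it. DESeq2 gave 0.81 and limma-voom 0.97 for Nfatc4, and both called it (adjusted p = 0.0247 by DESeq2 and 0.0151 by limma-voom). It was called without KO control female replicates 1 and 3 too, at 0.86 ± 0.21 (edgeR, adjusted p = 0.0156).

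For the other members the sexes lay closer on average. Their ranges also did not overlap for Nfatc2 among WT control aortas, with males higher, and for Dyrk1a among WT AngII aortas, with males lower. Here too the share of all genes that separate with 3 libraries a side was not counted, and the separations are a description only. Nfatc1 gave 0.27 ± 0.14 for male minus female (edgeR, adjusted p = 0.287), Nfatc2 0.16 ± 0.30, Dyrk1a -0.16 ± 0.15, Gsk3b -0.23 ± 0.13 and Csnk1a1 -0.048 ± 0.13 (log2, SE). Without KO control female replicates 1 and 3 these were 0.25, 0.36, -0.27, -0.30 and -0.091 in the same order, and none was called by edgeR. Whether a response differed between males and females was tested in the same fit, for the AngII response in KO and WT and the knockout effect in AngII and control mice. Of the 6 members, 0 were called or had an unadjusted p under 0.05 in any of these 4 tests. The furthest from 0 was Nfatc4, whose AngII response in KO was -1.23 ± 0.76 in males relative to females (edgeR, adjusted p = 0.71).

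The sexes also differed in a property of the libraries with which the levels of some members moved. For each library, the slope of gene level on the GC content of each gene's longest annotated transcript was taken over 8972 genes. It had a median of 0.19 in males and -0.16 in females (log2 level per 10 points of GC), and was above 0 in 11 of 12 males and 2 of 12 females. Nfatc4, at 58.8% GC, is richer in GC than 93.7% of genes. Nfatc2 has 55.3%, Nfatc1 53.7%, Dyrk1a 48.2%, Gsk3b 46.1% and Csnk1a1 43.3%. Over the protein-coding genes tested, the median male minus female change was -0.25 in the fifth of genes lowest in GC. It was 0.31 in the fifth highest, with -0.13, -0.049 and 0.10 between.

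Within the sexes some extremes of Nfatc4 and of the slope coincided. The lowest male level, 12.7 CPM in WT control replicate 2, came with the lowest male slope of -0.20. At the upper end the males did not match in this way. The highest male level, 37.9 CPM in KO control replicate 3, came with a slope of 0.31. The highest male slope, 0.34 in WT control replicate 1, came with 23.4 CPM. The highest female level, 25.1 CPM in KO AngII replicate 1, came with the highest female slope of 0.18, and the female library with 0 counts had a slope of -0.75. Log2 level and slope gave Pearson's r = 0.686 over the 12 males (permutation test, two-sided, p = 0.0146, adjusted over 18 relations 0.0524; Spearman's rho = 0.503, p = 0.0981). Over the 12 females r was 0.804 (permutation p = 0.00774, adjusted 0.0348; rho = 0.573, p = 0.0558). Without the 2 libraries farthest from the median slope, r was 0.476 in males and 0.0489 in females, so the female relation rests on those libraries. Among the other members, Dyrk1a in males ran against the slope, at r = -0.716 (permutation p = 0.00547, adjusted 0.0328; rho = -0.713, p = 0.0115), and at -0.55 without the 2 farthest libraries. Nfatc1 gave r = 0.384 in males and 0.637 in females (permutation p, adjusted, 0.388 and 0.0919). For Nfatc2, Gsk3b and Csnk1a1 in either sex and Dyrk1a in females r lay between -0.384 and 0.406, with adjusted p of 0.388 or more. Without the 2 farthest libraries these lay between -0.579 (Gsk3b in males) and 0.0402, and Gsk3b in females turned from 0.385 to -0.465. The 18 relations include those over all 24 libraries, which mix the sexes. There Nfatc4 gave 0.815 (adjusted permutation p = 0.00018) and Nfatc1 0.669 (0.00423), or 0.752 and 0.334 without the 2 farthest. Gsk3b and Dyrk1a gave -0.106 and -0.0783 there, or -0.646 and -0.624 without those 2. With the slope as a covariate, male minus female for Nfatc4 was -0.025 ± 0.34 (edgeR, adjusted p = 1), and the genes called by sex over the whole table numbered 9 in place of 860. The slope was taken from gene levels in these same libraries and was above 0 in 11 of 12 males and 2 of 12 females. Such a covariate can take up a difference between the sexes of any origin, so sex and slope cannot be told apart here. Smooth muscle markers moved with sex too: all 7 tested were higher in males, 3 of them called, and they summed to 13664 to 21922 CPM in males and 7136 to 19016 CPM in females. None of these 7 was at 0 in either sex. Macrophage and fibroblast markers were each higher in males in 6 of 8 tested, with 1 called in each list. Neural and Schwann markers were higher in 2 of 6 with 1 called. With 0 called, cardiac muscle markers were higher in 3 of 4, adipocyte in 3 of 5 and B cell in 2 of 3. Endothelial markers were higher in 2 of 8, mast cell in 1 of 4, brown adipocyte in 1 of 3, and T cell and skeletal muscle in 0 of 3 each. The part of any of these cell types in the Nfatc4 values was not tested.

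**Figure D4:**
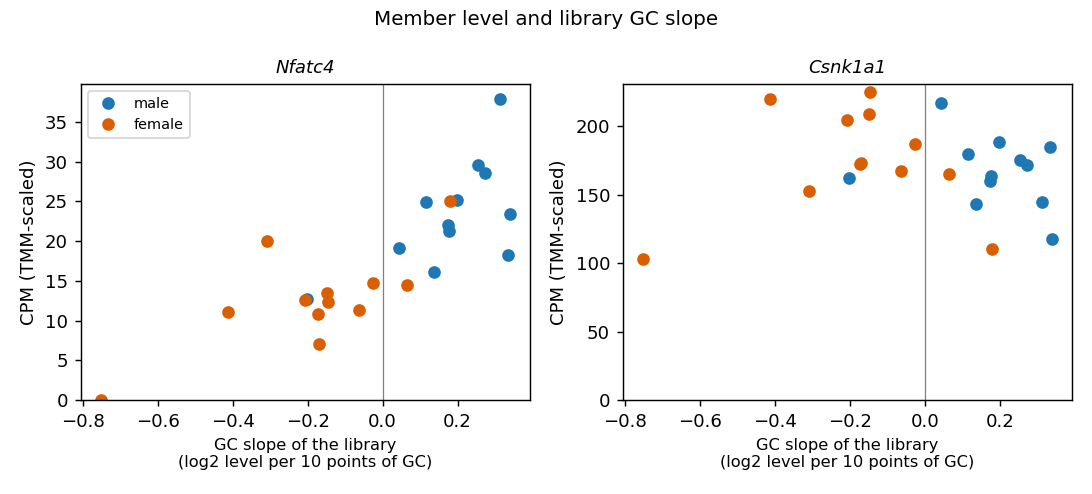
Level of Nfatc4 (left) and Csnk1a1 (right) in CPM (vertical axis) against the GC slope of the library (horizontal axis, log2 level per 10 points of GC), with a point for each of 12 males and 12 females. Males lie mostly right of 0 and females left of it, and Nfatc4, at 58.8% GC, is higher where the slope is higher, while Csnk1a1, at 43.3% GC, spreads without such an order.

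For each member up to 3 named protein-coding genes with the most similar level over the 24 libraries are given, among about 6952 genes with a mean of at least 10 CPM, by Pearson's r of log2 CPM as a description. Nfatc4 was closest to Nlgn2 (r = 0.96), Ptpn1 (0.948) and Pitpnm1 (0.943), the tightest likeness of any member. Gsk3b was closest to Exoc4 (0.857), Mef2a and Capzb (both 0.843), and Csnk1a1 to Wnk1 (0.849) and Ctnna1 (0.83). Dyrk1a was closest to Exoc6 (0.786), Fam175b (0.774) and Tardbp (0.759), and Nfatc1 to Epn1 (0.793), Npepl1 (0.767) and Tapbp (0.751). Nfatc2 had the loosest likeness, to Marcks (0.70), Ccdc55 (0.638) and the chemokine gene Ccl11 (0.60). Between members, Gsk3b and Csnk1a1 gave r = 0.734, Dyrk1a and Gsk3b 0.636, and Nfatc1 and Nfatc4 0.547. No NFAT factor correlated with a kinase above 0.28. The libraries share sex, depth and GC slope, which enter all of these values.

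The genes around NFAT were described from 5 lists. Of the calcineurin and calmodulin genes, 7 of the 8 listed were tested. Ppp3cb was the one called in KO, at -0.96 ± 0.22 in AngII mice (edgeR, adjusted p = 0.0394) and -1.06 ± 0.22 in control mice (adjusted p = 0.0297; -1.15 and adjusted p = 0.145 without KO control female replicates 1 and 3). The call ended in 18 of 36 alternatives in AngII mice, 12 of them without 1 library, and in 8 of 36 in control mice, while the value stayed between -1.41 and -0.71. With AngII in KO 0 of 7 were called by edgeR, and the calmodulin gene Calm2 gave 0.27 ± 0.23. With AngII in WT the alpha catalytic subunit Ppp3ca gave -0.54 ± 0.23 and Calm3 0.17 ± 0.165, and neither was called.

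Of the other export kinases, which include the remaining DYRK and casein kinase 1 genes, Gsk3a, protein kinase A and MAP kinases, 12 of 14 were tested. None was called for AngII or for the knockout. Their median change was 0.19 with AngII in KO and 0.063 with AngII in WT, against 0.014 and -0.012 over all genes. For KO against WT the median was -0.069 in AngII mice and -0.24 in control mice, against 0.0079 and -0.0057 over all genes, and 11 of 12 values were below 0 in control mice. With KO control female replicates 1 and 3 left out, 5 of 12 were below 0 in control mice with a median of 0.033, and the median with AngII in KO was 0.019. The smallest p-values with AngII in KO were those of Dyrk4, at 3.78 ± 1.38 on levels of 0 to 6.34 CPM in KO AngII aortas and 0 to 1.91 CPM in KO control aortas, and Dyrk1b, at 0.83 ± 0.39. With AngII in WT they were those of Dyrk1b, at 0.57 ± 0.38, and Csnk1d, at 0.26 ± 0.22. In control mice Mapk9 gave -0.38 ± 0.20 for KO minus WT. Once KO control female replicates 1 and 3 were left out, Dyrk4 gave 6.09 ± 2.29, Dyrk1b 0.48 ± 0.35 and Mapk9 -0.62 ± 0.24 in these contrasts, and none was called by edgeR.

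Of the genes of nuclear transport and cytoplasmic scaffolds, all 14 were tested and 0 were called in any of the 6 comparisons by edgeR. Their medians lay between -0.14 and 0.12 on the log2 scale. With AngII in KO, Ran, the small GTPase of nuclear transport, gave -0.80 ± 0.42 and the scaffold gene Iqgap1 0.23 ± 0.15. With AngII in WT, the importin gene Kpna1 gave 0.46 ± 0.18 and Iqgap1 0.34 ± 0.15. Cse1l, which recycles importin-alpha, gave -0.68 ± 0.29 for KO minus WT in AngII mice.

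Of the nuclear partners of NFAT, all 13 were tested and 0 were called for AngII or for the knockout by edgeR. Fosl2, an AP-1 subunit, gave 0.58 ± 0.26 with AngII in WT and -0.74 ± 0.26 for KO minus WT in AngII mice. Fosl1, another AP-1 subunit, gave 1.84 ± 0.58 with AngII in KO (edgeR, adjusted p = 0.388). It lay between 5.54 and 15.3 CPM in KO AngII aortas and between 0 and 4.46 CPM in KO control aortas, and these ranges did not overlap. The share of all genes that separate so with 6 libraries a side was not counted. Gata4 gave -3.39 ± 1.3 in the same contrast at 0 to 1.85 CPM in KO AngII aortas and 0 to 12.1 CPM in KO control aortas. Without KO control female replicates 1 and 3, Fosl1 gave 1.79 ± 0.65 and Gata4 -2.61 ± 1.33, and neither was called by edgeR. Jun gave -0.46 ± 0.21 for KO minus WT in AngII mice and -0.40 ± 0.21 in control mice.

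Of 13 known NFAT targets, 5 passed the count filter, among them Rcan1, Ptgs2, Spp1 and Kcnmb1. Rcan1, the inhibitor of calcineurin whose inner promoter is printed above, was the one called. It lay between 7.64 and 17.2 CPM in KO AngII aortas (median 10.5) and between 25.0 and 53.6 CPM in WT AngII aortas (median 43.1). The 2 groups did not overlap, and KO minus WT was -1.83 ± 0.35 (edgeR, adjusted p = 0.00744). With KO control female replicates 1 and 3 left out it was -1.86 (edgeR, adjusted p = 0.000703) and with the GC slope as a covariate -1.83 (adjusted p = 0.00678). The call ended with the receptor share as a covariate, at -2.32 (edgeR, adjusted p = 0.302), and within either sex alone. Among control aortas Rcan1 lay between 0 and 12.6 CPM in KO (median 8.065) and between 10.1 and 26.7 CPM in WT (median 13.0). These ranges overlapped. KO minus WT in control mice was -1.05 ± 0.37, with an interval from -1.80 to -0.30, and was not called (edgeR, adjusted p = 0.285). With AngII Rcan1 gave 0.66 ± 0.37 in KO and 1.44 ± 0.34 in WT (edgeR, adjusted p = 0.693 and 0.07), and the difference between these responses was -0.78 ± 0.51 (adjusted p = 1). Once KO control female replicates 1 and 3 were left out these were 0.33 ± 0.35, 1.44 ± 0.26 and -1.11 ± 0.43 (edgeR, adjusted p = 0.9, 0.00503 and 0.877), so the response in WT was then called. The 5 targets had a median of 0.38 with AngII in KO and 1.12 with AngII in WT. Spp1, osteopontin, gave 2.56 ± 1.17 with AngII in WT and was not called.

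**Figure D5:**
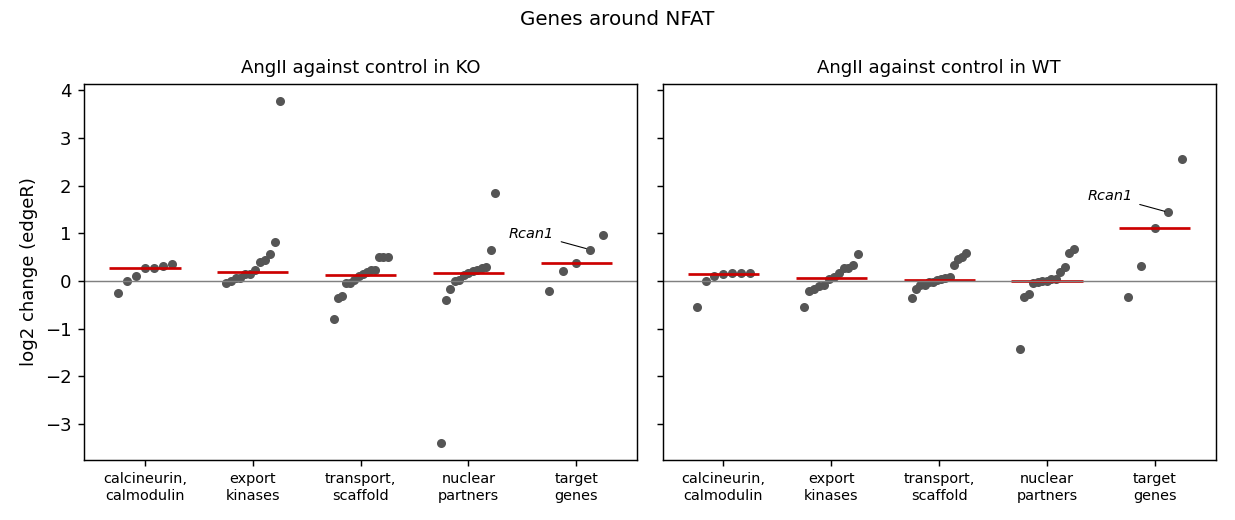
Change with AngII on the log2 scale (vertical axis) of the genes in 5 lists, in KO (left) and WT (right), with a point for each gene tested and the median of the list as a line. List medians lie between 0.12 and 0.38 in KO, and in WT between 0.0055 and 0.16 for 4 lists and at 1.12 for the 5 target genes. Rcan1 lies at 0.66 in KO and 1.44 in WT.

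By sex, 4 genes of these lists were called, all higher in males. Calm3 lay between 159 and 238 CPM in males and between 78.3 and 138 CPM in females, without overlap, and gave 0.84 ± 0.12 (edgeR, adjusted p = 7.9e-05). Gsk3a, the alpha form of GSK3, gave 1.02 ± 0.26, Mef2d 0.63 ± 0.15 and Junb 1.14 ± 0.34 (edgeR, adjusted p = 0.0169, 0.0113 and 0.0415). None of the 4 was called with the receptor share or with the GC slope as a covariate, and with the slope Calm3 gave 0.84 (edgeR, adjusted p = 0.0667), Gsk3a 0.33, Mef2d 0.16 and Junb -0.26. Since the slope nearly separates the sexes, sex and slope cannot be told apart in these values. Junb also lost its call without any 1 of 11 libraries.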

How the data were processed

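Per the labels' protocols, ribosomal RNA was removed from DNase-treated total RNA of 24 aortas before fragmentation and library preparation for Illumina sequencing. The values are raw gene counts, 1 column a library, which the authors deposited without normalization. The submitters' processing notes list featureCounts 1.4.6 together with TopHat2 2.0.14, cutadapt 1.8.1 and Bowtie2 2.2.5, and the build mm10. Settings and strandedness are not given in the sources used here. Each column was assigned to its group through the sample titles. Of the 41128 genes listed, 6547 lie on chromosomes 9, X, Y and MT or on chromosome 8 beyond position 97565603, have 0 counts in every library and were treated as not measured. Positions and exon lengths came from GENCODE M21, and promoter sequences from RefSeq (GRCm38.p6).

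Counts were tested with edgeR 4.0.16 (R 4.3.3). The filter was filterByExpr (at least 10 counts, total at least 15) and the scaling TMM. All 24 libraries entered 1 quasi-likelihood fit with 8 group means. Comparisons over both sexes are means of the male and female contrasts, two-sided, adjusted by Benjamini and Hochberg over 16316 genes and called under 0.05. Log2 CPM used a prior count of 2. The scripts were tested on simulated data. DESeq2 1.42.0, limma-voom (limma 3.58.1), other scalings, filters and covariates, single sexes and leaving out each library were tried as alternatives. No 2 libraries of a group were copies (chi-square per degree of freedom at least 6.66). The GC slope used genes above 3 log2 CPM, with a pseudocount of 0.5, and was added after the data had been seen, as was leaving out 2 KO control female libraries. Named genes were the 6 members, Ppp3cb, Rcan1, from each list the genes called (up to 4 by p) or else the 2 with the smallest p, and the 3 genes most like each member. A few genes that this rule names are not reported here. The members and lists were chosen with earlier results of these data known. Errors cover the spread between libraries, and PCR duplicates could not be told from separate molecules.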

Additional observations from a re-analysis of the deposited data

How the results depend on the processing

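No member was called for AngII, for the knockout or for the difference between the AngII responses under any setting run, and over all settings 86 values changed sign and 11 newly passed the threshold. For male minus female, 0 members were called by the main test, and 1, Nfatc4, without a count filter (0.87), by DESeq2 (0.81), by limma-voom with quality weights (0.97) and without KO control female replicates 1 and 3 (0.86). Leaving out 1 library gave 0 to 1 members called and 0.71 to 1.07 for Nfatc4, with the call made without WT control female replicate 2, KO control female replicate 1, 2 or 3, KO AngII female replicate 1, or replicate 2 of the KO control males or of the WT control males. None of the log2 values that changed sign was called, and the one furthest from 0 was Nfatc4 for AngII in KO in males alone (SE 0.30). With the receptor share as a covariate they were Csnk1a1 -0.030 (AngII in WT), 0.12 (KO in AngII mice) and 0.029 (KO in control mice), Dyrk1a 0.11 (KO in AngII mice) and 0.025 (KO in control mice), Gsk3b -0.15 (AngII in WT) and 0.18 (KO in AngII mice), and Nfatc2 0.25 (KO in AngII mice) and -0.038 (sex). With the GC slope as a covariate they were Csnk1a1 0.12, Nfatc1 -0.058 and Nfatc4 -0.025 (sex) and Nfatc4 -0.24 (AngII in KO). In females alone they were Dyrk1a -0.042 and Nfatc4 0.38 (difference of responses), Gsk3b 0.13 and Nfatc4 0.30 (KO in AngII mice), Nfatc2 0.18 (AngII in WT) and Nfatc4 -0.078 (KO in control mice). In males alone they were Csnk1a1 -0.065 and Nfatc2 0.069 (difference of responses), Dyrk1a 0.071, Nfatc1 0.12 and Nfatc2 0.23 (KO in AngII mice), Gsk3b -0.037 and Nfatc4 -0.56 (AngII in KO) and Gsk3b -0.037 (AngII in WT). Without KO control female replicates 1 and 3 they were Csnk1a1 -0.10, Dyrk1a -0.22 and Gsk3b -0.0057 (difference of responses) and Dyrk1a 0.17 (KO in control mice). With RLE size factors and with DESeq2 Dyrk1a was 0.022 and 0.023 (KO in AngII mice) and Gsk3b -0.036 and -0.037 (AngII in WT), and with RLE Nfatc4 was -0.0014 (AngII in KO). With limma-voom Dyrk1a was -0.027 (difference of responses) and Nfatc4 -0.022 (KO in control mice). Among protein-coding genes Gsk3b was -0.0026 (AngII in WT), and with only the groups compared it was -0.012, and Dyrk1a 0.0033 (KO in AngII mice).

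Leaving out 1 library at a time turned the sign in these ranges: for the difference of responses Csnk1a1 -0.080 to 0.14, Dyrk1a -0.13 to 0.27 and Nfatc4 -0.67 to 0.026. For sex it was Csnk1a1 -0.11 to 0.027. For AngII in KO it was Dyrk1a -0.36 to 0.029 and Nfatc4 -0.23 to 0.45, and for AngII in WT Gsk3b -0.073 to 0.085 and Nfatc2 -0.42 to 0.0062. For KO in AngII mice it was Dyrk1a -0.14 to 0.032, Gsk3b -0.14 to 0.017, Nfatc1 -0.17 to 0.022 and Nfatc2 -0.24 to 0.19. For KO in control mice it was Dyrk1a -0.31 to 0.0999, Nfatc2 -0.033 to 0.61 and Nfatc4 -0.19 to 0.52. The cause was not tested.

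Counts over all genes moved more. Without a count filter, by DESeq2 and by limma-voom the calls were 134, 80 and 329 for AngII in WT (34 by the main test), 182, 152 and 200 for KO in AngII mice (58), and 260, 183 and 43 for KO in control mice (36). Without a filter they were 85 for AngII in KO and 12 for the difference of responses (both 0), and DESeq2 called 1458 by sex (860). With the receptor share as a covariate they were 8 for AngII in WT, 2 and 0 for KO in AngII and control mice, and 12 by sex. Without KO control female replicates 1 and 3 they were 68 for AngII in WT and 3 for KO in control mice. With only the groups compared, 21 were called for KO in control mice and 1 for AngII in KO. In females alone 0 were called for AngII in WT, 0 for KO in AngII mice and 94 for KO in control mice, and in males alone 5, 0 and 0. Leaving out 1 library gave 5 to 86 for AngII in WT (without WT AngII female replicate 3 and replicate 1), and 13 (without WT control female replicate 2) to 399 (without KO control female replicate 2) for KO in control mice. It gave 35 to 72 for KO in AngII mice, 0 to 113 for AngII in KO, 0 to 2 for the difference of responses and 605 to 1562 by sex, the highest of the last 3 without KO control female replicate 2. Rcan1 in AngII mice lost its call in females alone, in males alone and with the receptor share as a covariate. Ppp3cb lost its call in 18 of 36 settings in AngII mice and 8 of 36 in control mice, always below 0.

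The replicate numbers did not pair the libraries: same-numbered libraries of different groups correlated at a mean r of 0.0041 over 84 pairs, and 10 of 24 correlated best with their own number. With the number as a replicate block Nfatc4 by sex was 0.84 (edgeR, adjusted p = 0.0736), Csnk1a1 in the difference of responses was -0.0072, and no member was called. Levels scaled to protein-coding counts alone were about 1.8 times as high for every member, at 15.2 CPM for Nfatc2 and 314 CPM for Csnk1a1, in the same order. The median of all genes by sex was -0.050, -0.18 without a count filter and 0.10 for the difference of responses without KO control female replicates 1 and 3. Depth limits Nfatc2 most, at a median of 27 counts a library.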
